A study of Saccharomyces cerevisiae with 20 samples.

Results

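The 10 genes described here encode enzymes of budding yeast that remove superoxide and peroxides. They are the catalases CTT1 (YGR088W) and CTA1 (YDR256C), the superoxide dismutases SOD1 (YJR104C) and SOD2 (YHR008C), and the peroxiredoxins TSA1 (YML028W), TSA2 (YDR453C), AHP1 (YLR109W) and PRX1 (YBL064C). The peroxidases GPX1 (YKL026C) and GPX2 (YBR244W), relatives of glutathione peroxidase, complete the list. They were found by their systematic names among the 6679 rows of the deposited table. The cells were SK1, a laboratory strain of Saccharomyces cerevisiae, growing in YEPD medium. In DBP1 cells the open reading frame of the DEAD-box RNA helicase DED1 had been replaced by that of its paralog DBP1, and 3 cultures were sampled at 30C and 2 at 37C. DED1 cells, which carry DED1 under the same regulatory regions, were the comparison, again with 3 cultures at 30C and 2 at 37C. All cultures had 1 min of 100 uM cycloheximide, an inhibitor of translation elongation, before harvest at an optical density of 0.6. Polyadenylated mRNA and ribosome footprints were sequenced, so there were 10 libraries of each kind. A culture means here the mRNA and footprint library with the same strain, temperature and replicate number. The labels do not say whether replicates were grown separately, so the p-values measure the spread between these samples, which may be technical.

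Aerobic metabolism makes superoxide and hydrogen peroxide. Superoxide dismutases turn superoxide into hydrogen peroxide and oxygen, and catalases split hydrogen peroxide into water and oxygen. Peroxiredoxins and glutathione-peroxidase-like enzymes reduce peroxides through reactive cysteines, which are restored by thioredoxin or glutathione. In yeast, several of these genes, CTT1 best known among them, are switched on by the general stress factors Msn2 and Msn4, and others by the peroxide-sensing factors Yap1 and Skn7.

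Levels were RPKM, a read count divided by coding length and by the reads of its library, and so can be compared between genes. The steps between low RPKM values gave a depth for each library, from 3.94 to 9.69 M reads for mRNA and from 4.82 to 9.39 M for footprints. All 10 genes came out as whole reads in all 20 libraries, within 0.02 of a read. In mRNA, DED1 stood between 0.0765 and 3.19 RPKM in DBP1 cells and between 40.9 and 54.2 RPKM in DED1 cells, so the libraries matched their strain labels. The labels do not say whether the 30C and 37C cultures were grown and prepared together, so an effect of temperature and one of separate handling cannot be told apart.

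The summed level of the family was dominated by 3 genes in every library. SOD1, the cytosolic copper-zinc superoxide dismutase, TSA1, a cytosolic peroxiredoxin, and AHP1, a peroxiredoxin with a preference for alkyl hydroperoxides, made up 89.6 to 91.7% of the summed mRNA RPKM of the 10 genes in each library. In footprints the same 3 genes made up 93.5 to 94.8%. At 30C, AHP1 mRNA averaged 3881 ± 212 RPKM in DBP1 cells and 2904 ± 186 RPKM in DED1 cells (SD, n = 3 each). TSA1 averaged 2381 RPKM in DBP1 cells and 2395 RPKM in DED1 cells, and SOD1 2154 and 1855 RPKM in the same order of strains. Below them came SOD2, the mitochondrial manganese superoxide dismutase, with 420 and 292 RPKM in DBP1 and DED1 cells. Next in DBP1 cells were GPX2 with 192 RPKM and PRX1, the mitochondrial peroxiredoxin, with 181 RPKM, and their ranges over cultures overlapped. In DED1 cells GPX2 averaged 284 RPKM, overlapping SOD2, and PRX1 99.3 RPKM. CTT1, TSA2 and GPX1 were below the median gene in mRNA in all 4 groups. At 30C their mRNA means were 37.1, 34.5 and 27.0 RPKM in DBP1 cells, where CTT1 overlapped the other two and TSA2 was above GPX1 in every culture. In DED1 cells the means were 9.0, 22.5 and 11.3 RPKM, where CTT1 and GPX1 overlapped and TSA2 was above both.

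CTA1, the catalase of peroxisomes, was the lowest of the 10. Its mRNA was 2.01, 1.85 and 1.22 RPKM in the 30C cultures of DBP1 cells, against 3.16, 2.10 and 2.25 RPKM in those of DED1 cells. At 37C it was 2.15 and 1.80 RPKM in DBP1 cells, against 1.80 and 2.73 RPKM in DED1 cells. The groups did not overlap at 30C and overlapped at 37C. How often groups fail to overlap over all genes was not counted, so statements on overlap describe the values and are no test. CTA1 footprints lay between 0.146 and 0.558 RPKM, which is 2 to 5 reads per library. It therefore failed the filter of a mean of 5 RPKM in both assays, and the other 9 genes passed. Without that filter its log2 mRNA difference between DBP1 and DED1 cells at 30C was -0.38 ± 0.20 (SE), which did not pass limma's test at an adjusted p of 0.278.

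**Figure D1:**
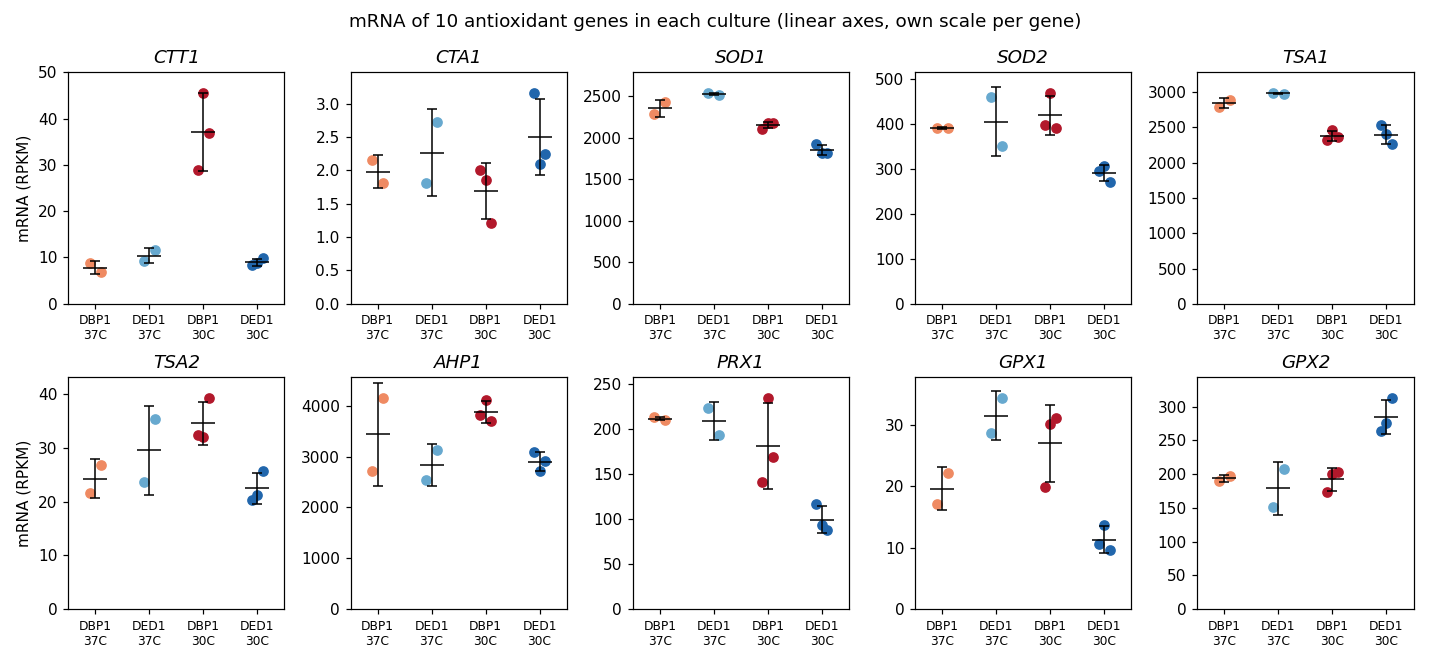
mRNA level (RPKM, vertical axes on linear scales from 0, own scale per gene) of the 10 genes in every culture of DBP1 and DED1 cells at 37C and 30C. Points are cultures, horizontal bars group means and error bars SD (n = 2 at 37C, n = 3 at 30C), and CTT1 stands at 28.9 to 45.5 RPKM in DBP1 cells at 30C and at 6.76 to 11.5 RPKM in the other cultures.

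At 30C, 5 of the 9 tested genes were higher in mRNA and 1 was lower in DBP1 cells than in DED1 cells. The higher genes were CTT1, GPX1, PRX1, TSA2 and SOD2, the lower gene was GPX2, and SOD1, TSA1 and AHP1 did not pass. Over all 5454 genes tested, 9.30% were called, 8.03% higher and 1.27% lower, by limma on log2(RPKM + 1) with a Benjamini-Hochberg adjusted p under 0.05. The median log2 difference of the 9 genes was 0.52, against 0.04 over all genes. In footprints the same 6 genes were called in the same directions, with 13.5% of 4986 genes called, 10.4% higher and 3.09% lower. Of these, CTT1 entered the footprint test through DBP1 cells at 30C alone, the group where it is high. The footprint median of the 9 genes was 0.48, against 0.06 over all genes. The genes were chosen with earlier results of these data known, so these counts and medians are no test of the family.

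CTT1, the cytosolic catalase, had the largest strain difference of the 9 genes at 30C. Its mRNA was 28.9, 45.5 and 36.8 RPKM in DBP1 cells, against 8.35, 8.84 and 9.79 RPKM in DED1 cells. Its footprints were 26.4, 43.3 and 37.2 RPKM in DBP1 cells, against 4.18, 2.65 and 3.91 RPKM in DED1 cells. Every DBP1 culture was above every DED1 culture in both assays. The mRNA rose 3.76-fold, a log2 difference of 1.91 ± 0.17 (SE), with a limma adjusted p of 0.00019. The footprints rose 7.93-fold, a log2 difference of 2.99 ± 0.30 (SE), with a limma adjusted p of 0.000342. These folds are on the RPKM + 1 scale, which understates low genes, and the ratio of mean footprint RPKM was 9.95. The footprint values rest on 396, 396 and 292 reads in DBP1 cells and on 64, 33 and 41 reads in DED1 cells. CTT1 passed the footprint filter through DBP1 cells at 30C alone, since its mean was under 5 RPKM in the other 3 groups.

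The ratio of the catalases was higher in all DBP1 cultures than in all DED1 cultures at 30C. CTT1 mRNA was 23.1 ± 8.0 times CTA1 mRNA in DBP1 cells at 30C and 3.74 ± 0.95 times in DED1 cells (SD, n = 3 each). At 37C the ratio was 3.90 in DBP1 cells and 4.69 in DED1 cells. CTA1 reads were few, 8 to 37 per mRNA library, so the ratio is imprecise.

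SOD2 mRNA was 399, 470 and 391 RPKM in DBP1 cells at 30C, against 297, 306 and 272 RPKM in DED1 cells. Its footprints were 700, 858 and 765 RPKM in DBP1 cells, against 569, 600 and 533 RPKM in DED1 cells. The strains did not overlap in either assay. SOD2 mRNA rose 1.44-fold and SOD2 footprints 1.36-fold, with limma adjusted p of 0.0171 and 0.0124. The mRNA call ended without DBP1 culture 2, at an adjusted p of 0.0672, and without DED1 culture 3, at 0.0635. SOD1 was 2109, 2180 and 2173 RPKM in DBP1 cells, against 1923, 1821 and 1819 RPKM in DED1 cells. The SOD1 values did not overlap either, but its log2 difference of 0.22 ± 0.06 (SE) had a limma adjusted p of 0.0536. That p was 0.0419 without DED1 culture 1 and lay between 0.0419 and 0.191 over all alternatives.

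Of the peroxiredoxins, PRX1 and TSA2 were higher and TSA1 and AHP1 were not called. PRX1 mRNA was 141, 234 and 169 RPKM in DBP1 cells, against 117, 93.1 and 88.3 RPKM in DED1 cells. All DBP1 cultures were above the DED1 cultures, and the log2 difference was 0.84 ± 0.17 (SE), limma adjusted p 0.0134. PRX1 footprints were 129, 191 and 149 RPKM in DBP1 cells, against 88.9, 80.8 and 76.3 RPKM in DED1 cells. They rose 1.87-fold with a limma adjusted p of 0.00254. The PRX1 mRNA call ended without DED1 culture 3, at an adjusted p of 0.0519.

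TSA2 is the low-level paralog of TSA1. Its mRNA was 32.4, 32.0 and 39.2 RPKM in DBP1 cells, against 20.3, 21.3 and 25.8 RPKM in DED1 cells, and its footprints 20.4, 23.2 and 22.3 RPKM against 11.2, 15.0 and 9.06 RPKM. The strains did not overlap in either assay. The log2 differences were 0.60 ± 0.16 in mRNA and 0.87 ± 0.18 in footprints (SE), with limma adjusted p of 0.0420 and 0.0136. The mRNA call ended without DBP1 culture 1, 2 or 3, at adjusted p of 0.0757, 0.0770 and 0.118. It also ended without DED1 culture 1 or 2, at 0.0882 and 0.130, with no filter on low genes, at 0.0573, and with median-of-ratios scaling, at 0.0584. The footprint call ended without DBP1 culture 2, at 0.0527. TSA1 and TSA2 are close paralogs, and how reads that match both were counted is not given in the sources used here, so the TSA2 values are uncertain.

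TSA1 was the flattest of the 9 genes between strains at 30C. Its mRNA was 2320, 2462 and 2361 RPKM in DBP1 cells, against 2527, 2399 and 2259 RPKM in DED1 cells, and the ranges overlapped. The log2 mRNA difference was -0.01, with a 95% interval of -0.15 to 0.14. In footprints the interval was -0.16 to 0.15. TSA1 mRNA was 69.6 ± 8.5 times TSA2 mRNA in DBP1 cells and 108 ± 19 times in DED1 cells (SD, n = 3 each). AHP1 mRNA was 3826, 4116 and 3703 RPKM in DBP1 cells, against 3085, 2714 and 2913 RPKM in DED1 cells. Its cultures did not overlap, but the log2 difference of 0.42 ± 0.14 (SE) had a limma adjusted p of 0.0936, and the footprint difference of 0.48 ± 0.17 (SE) one of 0.0866.

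GPX1 and GPX2, glutathione-peroxidase-like genes that are paralogs, differed between the strains in opposite directions. GPX1 mRNA was 19.8, 30.0 and 31.1 RPKM in DBP1 cells, against 10.6, 13.7 and 9.58 RPKM in DED1 cells. GPX2 mRNA was 173, 200 and 203 RPKM in DBP1 cells, against 264, 276 and 312 RPKM in DED1 cells. GPX1 was higher and GPX2 lower in every DBP1 culture than in any DED1 culture. The log2 mRNA differences were 1.17 ± 0.19 for GPX1 and -0.56 ± 0.12 for GPX2 (SE), with limma adjusted p of 0.00512 and 0.0180. GPX2 mRNA was 7.31 ± 1.24 times GPX1 mRNA in DBP1 cells and 25.9 ± 6.3 times in DED1 cells (SD, n = 3 each).

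GPX1 footprints were 6.35, 10.4 and 7.01 RPKM in DBP1 cells, against 3.36, 0.885 and 2.80 RPKM in DED1 cells. GPX2 footprints were 106, 95.6 and 109 RPKM in DBP1 cells, against 155, 151 and 154 RPKM in DED1 cells. Neither pair of groups overlapped. GPX1 footprints rose 2.79-fold and GPX2 footprints fell 1.48-fold, with limma adjusted p of 0.0136 and 0.0190. GPX1 had 3 to 41 footprint reads per library, so its footprint values are imprecise. The GPX1 footprint call ended without DBP1 culture 2, at 0.0565. The GPX2 mRNA call ended without DBP1 culture 1, at 0.0648, without DED1 culture 2, at 0.0510, and without DED1 culture 3, at 0.0693. The GPX2 footprint call was lost when DBP1 culture 2 was left out, at 0.0700, and when DED1 culture 2 or 3 was, at 0.0553 and 0.0589.

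**Figure D2:**
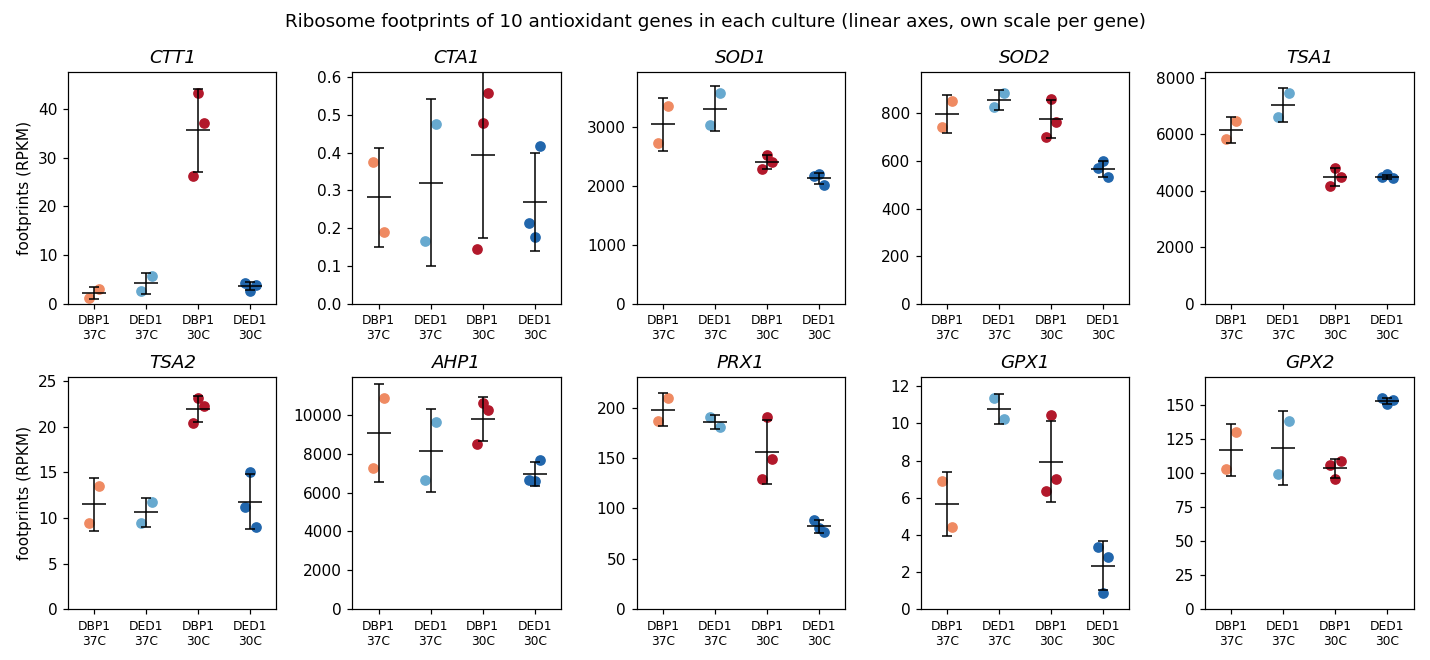
Ribosome footprints (RPKM, vertical axes on linear scales from 0, own scale per gene) of the 10 genes in every culture of DBP1 and DED1 cells at 37C and 30C. Points are cultures, horizontal bars group means and error bars SD (n = 2 at 37C, n = 3 at 30C), and CTT1 stands at 26.4 to 43.3 RPKM in DBP1 cells at 30C and at 1.28 to 5.75 RPKM in the other cultures.

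At 37C none of the 9 tested genes passed between the strains in either assay. In mRNA, limma called 0.0550% of all genes, 0.0183% higher and 0.0367% lower, and 576 of 5454 had an unadjusted p under 0.05, with GPX1 among them at 0.0170. In footprints 0.963% were called, 0.0401% higher and 0.923% lower, and 822 of 4986 had an unadjusted p under 0.05, with TSA1 among them at 0.0483. With 2 cultures per strain, these comparisons are less precise than those at 30C. CTT1 mRNA was 8.74 and 6.76 RPKM in DBP1 cells, against 9.32 and 11.5 RPKM in DED1 cells, with no overlap. Its footprints were 1.28 and 3.12 RPKM in DBP1 cells, against 2.64 and 5.75 RPKM in DED1 cells, which overlapped. The log2 differences were -0.39, with a 95% interval of -0.86 to 0.08, and -0.69, with an interval of -1.51 to 0.12. SOD1 in mRNA and TSA1 in both assays were also lower in every DBP1 culture than in any DED1 culture at 37C, without passing.

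GPX1 mRNA at 37C was 17.1 and 22.1 RPKM in DBP1 cells, against 28.6 and 34.3 RPKM in DED1 cells, and its footprints were 6.90 and 4.45 RPKM against 11.4 and 10.2 RPKM. The DBP1 cultures were the lower ones in both assays. The log2 differences of -0.66 ± 0.23 and -0.84 ± 0.38 (SE) had limma adjusted p of 0.336 and 0.304. GPX2 and PRX1, called at 30C, had log2 mRNA differences of 0.13 and 0.03 at 37C, with 95% intervals of -0.20 to 0.47 and -0.44 to 0.49. SOD2 and TSA2 had -0.04 and -0.26, with intervals of -0.34 to 0.27 and -0.69 to 0.18.

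**Figure D3:**
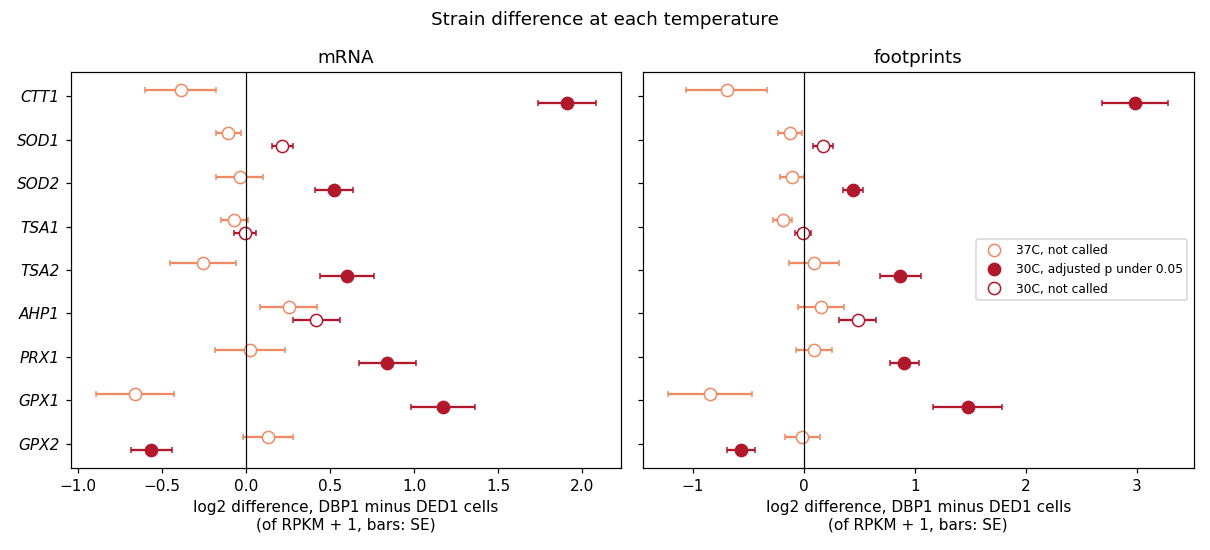
Difference between DBP1 and DED1 cells (log2 of RPKM + 1, horizontal axis, bars SE) in mRNA (left) and footprints (right) for the 9 tested genes at 37C (above) and 30C (below). Filled points passed limma at an adjusted p under 0.05, and at 30C CTT1 reaches 1.91 in mRNA and 2.99 in footprints, whereas no gene has a filled point at 37C.

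Between temperatures, CTT1 fell in DBP1 cells and was not called in DED1 cells. In DBP1 cells its mRNA was 8.74 and 6.76 RPKM at 37C, against 28.9, 45.5 and 36.8 RPKM at 30C, a log2 difference of -2.11 ± 0.19 (SE) with a limma adjusted p of 3.44e-05. Its footprints were 1.28 and 3.12 RPKM at 37C, against 26.4, 43.3 and 37.2 RPKM at 30C. They fell 11.7-fold on the RPKM + 1 scale, with a limma adjusted p of 4.55e-05. The 37C footprint values rest on 15 and 36 reads. CTT1 entered this footprint test through DBP1 cells at 30C alone, so its p is not independent of that group. The 37C cultures lay below all 30C cultures in both assays. In DED1 cells CTT1 mRNA was 9.32 and 11.5 RPKM at 37C, against 8.35, 8.84 and 9.79 RPKM at 30C, with overlapping ranges. The log2 differences in DED1 cells were 0.19 in mRNA and 0.13 in footprints, with 95% intervals of -0.24 to 0.62 and -0.62 to 0.88.

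In DBP1 cells 1 of the 9 genes, TSA1, was higher at 37C in mRNA and 2, CTT1 and TSA2, were lower, where 43.1% of all genes were called, 30.0% higher and 13.1% lower. In footprints SOD1 and TSA1 were higher and CTT1 and TSA2 lower, where 38.9% of all genes were called, 21.2% higher and 17.6% lower. These 4 of 9 genes are close to the share over all genes. TSA2 mRNA was 21.7 and 26.8 RPKM at 37C, against 32.4, 32.0 and 39.2 RPKM at 30C, and its footprints were 9.44 and 13.5 RPKM against 20.4, 23.2 and 22.3 RPKM. The 37C cultures were lower in both assays. The log2 differences were -0.50 ± 0.18 and -0.90 ± 0.20 (SE), with limma adjusted p of 0.0449 and 0.00723. The TSA2 mRNA call ended when any 1 of the 5 DBP1 cultures was left out, at adjusted p of 0.0664, 0.0586 and 0.124 for cultures 1, 2 and 3 at 30C and 0.238 and 0.0586 for cultures 1 and 2 at 37C. It also ended with no filter, at 0.0582, and the footprint call ended without culture 1 at 37C, at 0.0665.

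TSA1 footprints in DBP1 cells were 5832 and 6479 RPKM at 37C, against 4169, 4796 and 4502 RPKM at 30C, so all 37C cultures were higher. They rose 1.37-fold with a limma adjusted p of 0.00156, and the mRNA rose 1.19-fold with 0.0179. SOD1 footprints were 2726 and 3362 RPKM at 37C, against 2287, 2519 and 2411 RPKM at 30C, 1.26-fold higher with a limma adjusted p of 0.0259. The TSA1 mRNA call ended without DBP1 culture 1 at 30C, at 0.0570, and without DBP1 culture 2 at 37C, at 0.104. The SOD1 footprint call ended without culture 1 or 3 at 30C, at 0.0761 and 0.0577, and without culture 2 at 37C, at 0.228. Genes not called in DBP1 cells included PRX1, with mRNA of 213 and 210 RPKM at 37C against 141, 234 and 169 RPKM at 30C. Without DBP1 culture 2 at 30C, PRX1 passed in mRNA at an adjusted p of 0.0402 and in footprints at 0.00957. Without DBP1 culture 1 at 30C, GPX1 mRNA passed as lower at 37C, at 0.0303. AHP1 mRNA passed as lower without DBP1 culture 2 at 37C, at 0.0204, and had a log2 difference of 0.10 without DBP1 culture 1 at 37C, against -0.20 with all cultures.

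In DED1 cells 5 of the 9 genes were higher at 37C in mRNA, PRX1, GPX1, SOD1, SOD2 and TSA1, and GPX2 was lower. Over all genes 53.3% were called, 43.1% higher and 10.3% lower, so 6 of 9 is near the background. The same 6 genes were called in footprints, where the share over all genes was 52.6%, 38.9% higher and 13.6% lower. The median gene itself stood 0.18 log2 higher at 37C in the mRNA of DBP1 cells and 0.26 higher in that of DED1 cells. In footprints that shift was 0.10 and 0.21. Median-of-ratios scaling brings these medians to between 0.01 and 0.02. With that scaling the mRNA calls of SOD1, SOD2 and TSA1 in DED1 cells ended, at adjusted p of 0.0551, 0.223 and 0.558, as did the TSA1 mRNA call in DBP1 cells, at 0.342, and the SOD1 footprint call in DBP1 cells, at 0.116. GPX1 mRNA in DBP1 cells passed as lower at 37C with it, at 0.0495.

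GPX1 had the largest temperature difference of the 9 genes in DED1 cells. Its mRNA was 28.6 and 34.3 RPKM at 37C, against 10.6, 13.7 and 9.58 RPKM at 30C, and its footprints were 11.4 and 10.2 RPKM against 3.36, 0.885 and 2.80 RPKM. The 37C cultures were higher in both assays. The mRNA rose 2.65-fold and the footprints 3.74-fold, with limma adjusted p of 0.000683 and 0.00164. GPX2 mRNA was 151 and 207 RPKM at 37C, against 264, 276 and 312 RPKM at 30C, and fell 1.60-fold with a limma adjusted p of 0.00281. The GPX2 footprints, 99.5 and 138 RPKM at 37C against 155, 151 and 154 RPKM at 30C, were lower at an adjusted p of 0.0447. That footprint call ended without DED1 culture 1, 2 or 3 at 30C, at 0.0869, 0.0801 and 0.0888, without DED1 culture 1 at 37C, at 0.429, and with no filter on low genes, at 0.0512. GPX2 mRNA was 5.65 times GPX1 mRNA in DED1 cells at 37C, against 25.9 times at 30C.

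PRX1 mRNA in DED1 cells was 224 and 194 RPKM at 37C, against 117, 93.1 and 88.3 RPKM at 30C, and rose 2.10-fold with a limma adjusted p of 0.00154. Its footprints rose 2.25-fold with an adjusted p of 0.000237. SOD2 mRNA was 460 and 351 RPKM at 37C, against 297, 306 and 272 RPKM at 30C, with every 37C culture higher. It rose 1.38-fold, and its call ended without DED1 culture 1 at 37C, at 0.131. SOD1 mRNA was 2540 and 2517 RPKM at 37C, against 1923, 1821 and 1819 RPKM at 30C, and TSA1 mRNA was 2987 and 2977 RPKM against 2527, 2399 and 2259 RPKM. SOD1 mRNA rose 1.36-fold and its footprints 1.55-fold, TSA1 mRNA rose 1.25-fold and its footprints 1.56-fold, each with a limma adjusted p under 0.05. TSA2 mRNA was not called in DED1 cells, but passed as higher at 37C without DED1 culture 1 at 37C, at 0.0269. AHP1 was not called in either strain, with log2 mRNA differences of -0.20 in DBP1 cells and -0.04 in DED1 cells.

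Whether the strain difference itself differed between temperatures was tested as the difference at 37C minus that at 30C. In mRNA CTT1 and GPX1 passed, both lower, where 5.23% of all genes were called, 5.06% as lower and the rest as higher. For CTT1 the log2 strain difference was -0.39 at 37C and 1.91 at 30C, an interaction of -2.30 ± 0.27 (SE) with a limma adjusted p of 0.00295. For GPX1 it was -0.66 at 37C and 1.17 at 30C, an interaction of -1.83 ± 0.30 (SE) with 0.00874. GPX2 ran the other way, with 0.13 at 37C and -0.56 at 30C, but its interaction had an adjusted p of 0.0653. It passed without DED1 culture 2 at 37C, at 0.0272.

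In footprints CTT1, GPX1, PRX1 and SOD2 passed, all lower, where 12.0% of all genes were called. The CTT1 strain difference was -0.69 at 37C and 2.99 at 30C, an interaction of -3.68 ± 0.47 (SE) with a limma adjusted p of 0.00220. As CTT1 passed the footprint filter through DBP1 cells at 30C alone, that p is not independent of the group where it is high. For GPX1 it was -0.84 at 37C and 1.48 at 30C, with an interaction adjusted p of 0.0185. For PRX1 it was 0.09 at 37C and 0.91 at 30C, with 0.0363, and for SOD2 -0.11 at 37C and 0.45 at 30C, with 0.0389. The median interaction of all genes in footprints was -0.14. With median-of-ratios scaling, which brings that median to -0.02, the PRX1 and SOD2 interactions did not pass, at 0.0718 and 0.120. CTT1 passed whichever culture was left out. The GPX1 footprint interaction ended without DBP1 culture 2 at 37C, at 0.0589, and without DED1 culture 1 at 37C, at 0.0677.

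The PRX1 and SOD2 interactions in footprints were close to the threshold, and their calls ended without any of several cultures. Over all alternatives the log2 interaction stayed between -0.944 and -0.662 for PRX1 and between -0.652 and -0.419 for SOD2. PRX1 did not pass without DBP1 culture 3 at 30C, at 0.0613, DBP1 culture 1 or 2 at 37C, at 0.0942 and 0.0589, DED1 culture 2 or 3 at 30C, at 0.0735 and 0.0723, or DED1 culture 1 or 2 at 37C, at 0.113 and 0.0776. SOD2 did not pass without DBP1 culture 2 or 3 at 30C, at 0.0656 and 0.0692, DBP1 culture 1 at 37C, at 0.111, DED1 culture 2 or 3 at 30C, at 0.0576 and 0.0718, or DED1 culture 1 or 2 at 37C, at 0.0820 and 0.104. The GPX2 footprint interaction of 0.55 had an adjusted p of 0.102 and passed without DED1 culture 2 at 37C, at 0.0405.

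Translation efficiency, the footprint RPKM over the mRNA RPKM of a culture, separated the genes more than the conditions did. AHP1 was highest, with means of 2.52 in DBP1 cells and 2.41 in DED1 cells at 30C and 2.65 and 2.85 in the same order at 37C, where the median gene had 0.641 to 0.670. TSA1 and SOD2 were next, from 1.88 to 2.36 and from 1.85 to 2.16 over the 4 group means, and their ranges over cultures overlapped. SOD1 had 1.12 to 1.31 and PRX1 0.831 to 0.935. GPX2 and TSA2 were below 0.7 in all group means. GPX1 had group means between 0.224 and 0.348, against 0.543 to 0.664 for its paralog GPX2.

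CTT1 was the member whose efficiency differed most in value between groups. It was 0.912, 0.952 and 1.01 in DBP1 cells at 30C, against 0.501, 0.300 and 0.399 in DED1 cells at 30C. At 37C it was 0.147 and 0.461 in DBP1 cells, against 0.284 and 0.499 in DED1 cells. DBP1 cells at 30C were above the 7 other cultures, whose groups overlapped. Among all genes CTT1 stood at percentile 74.7 of efficiency in DBP1 cells at 30C and at percentile 17.3 in DED1 cells at 30C.

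None of the 9 tested genes passed limma's test of efficiency in any of the 5 comparisons when the libraries were fitted without pairing by culture. Over all genes 0.0402% were called between strains at 30C, 0.0201% at 37C, 1.02% between temperatures in DBP1 cells (0.0603% higher and 0.964% lower at 37C), 0.985% in DED1 cells and 0.00% for the interaction, the last with 113 of 4977 genes at an unadjusted p under 0.05. The log2 difference of CTT1 between strains at 30C was 1.08 ± 0.37 (SE), with an unadjusted p of 0.00952 and an adjusted p of 1. Between temperatures in DBP1 cells it was -1.44 ± 0.41 (SE), with an adjusted p of 0.104. The footprint and mRNA library of a culture deviated together, and with the culture as a block that CTT1 difference passed at an adjusted p of 0.0168, where all alternatives ran from 0.0168 to 0.652. The TSA1 efficiency difference between temperatures in DED1 cells, 0.32 ± 0.10 (SE), had an adjusted p of 0.159 and passed with that block at 0.0220, where all alternatives ran from 0.0220 to 0.731. CTT1 between strains at 30C had 0.219 with the block. Over all genes the block called 279 of 4977 between temperatures in DBP1 cells and 334 in DED1 cells, against 51 and 49 without it. CTT1 entered these efficiency tests through its footprints in DBP1 cells at 30C alone.

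**Figure D4:**
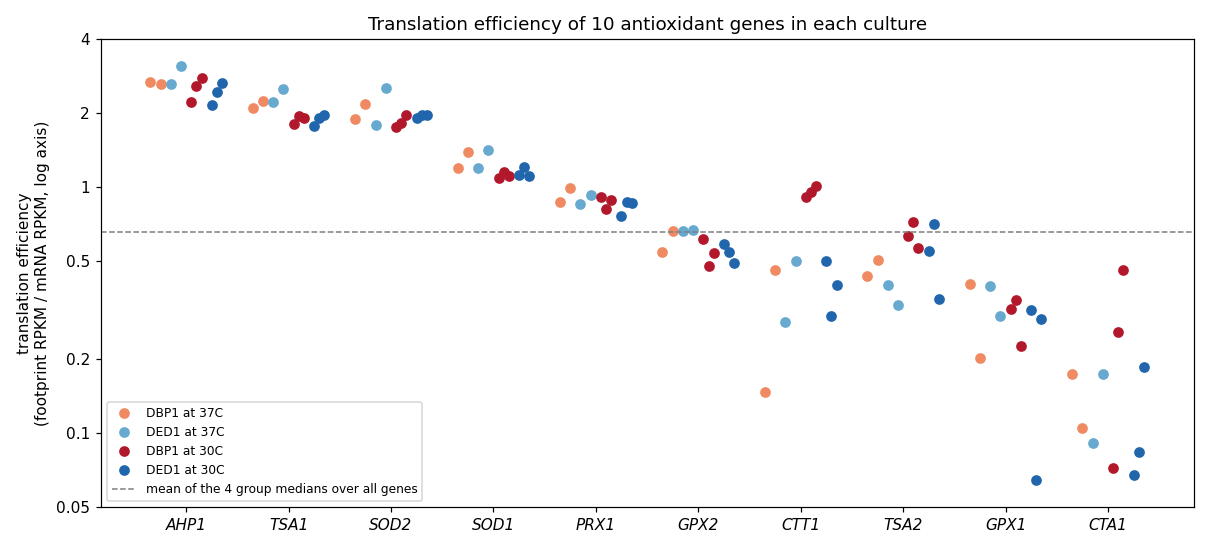
Translation efficiency (footprint RPKM over mRNA RPKM, log axis) of the 10 genes in each culture of DBP1 and DED1 cells at 37C and 30C, with points for cultures and a dashed line at the mean of the 4 group medians over all genes. CTT1 lies at 0.912 to 1.01 in DBP1 cells at 30C and at 0.147 to 0.501 in the other cultures, whereas AHP1 stays above 2 throughout.

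For 25 other antioxidant genes, the share called between strains at 30C was near that of all genes, 9.30% in mRNA and 13.5% in footprints. GRX1 and GRX2, cytosolic glutaredoxins, and TRX3, the mitochondrial thioredoxin, were higher in mRNA in DBP1 cells, 3 of 24 tested, with log2 differences of 0.61, 0.44 and 0.43. In footprints the same 3 and HYR1, the peroxidase that senses hydrogen peroxide for Yap1, were higher, 4 of 25. The medians of the list were 0.11 in mRNA and 0.13 in footprints. Leaving out 1 culture gave 1 to 3 called genes in mRNA and 2 to 5 in footprints. The partners of these enzymes were not called between strains. They are CCS1, the copper chaperone of Sod1, MTM1, needed for manganese loading of Sod2, and SRX1, which repairs overoxidised Tsa1 and whose mRNA failed the filter on low values. None of the 6 regulators, YAP1, SKN7, YBP1, HAP1, MSN2 and MSN4, was called between strains at either temperature in either assay.

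At 37C only CCP1, the mitochondrial cytochrome c peroxidase, was called among those 25 genes, with footprints 0.65 log2 lower in DBP1 cells, limma adjusted p 0.0417. That call ended whichever culture at 37C was left out and with median-of-ratios scaling. Between temperatures, 10 of 24 were higher and 2 lower at 37C in the mRNA of DBP1 cells, and 13 of 24 were higher and 2 lower in that of DED1 cells, where 43.1% and 53.3% of all genes were called. In footprints, 6 of 25 were higher and 4 lower in DBP1 cells and 12 of 25 were higher and 1 lower in DED1 cells, where 38.9% and 52.6% of all genes were called. All 4 counts are near the share over all genes. TRX1, a cytosolic thioredoxin, was lower at 37C in both strains, with log2 mRNA differences of -0.99 in DBP1 cells and -0.97 in DED1 cells. GND1, which makes NADPH in the pentose phosphate pathway, was 0.78 higher in DBP1 cells and 0.64 in DED1 cells. The interaction passed for CCP1 and GRX2 in mRNA, at -0.89 and -0.78 log2, and for CCP1, GRX2, TRX3 and MSN4 in footprints, at -0.88, -0.89, -0.55 and -0.74. That is 2 of 24 in mRNA and 4 of 25 in footprints, near the shares over all genes of 5.23% and 12.0%. Without 1 culture, 0 to 2 genes of the list passed that test in mRNA and 2 to 3 in footprints.

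Over the 10 mRNA libraries, the genes whose log2 values followed a member most closely were sought among 4631 genes. For CTT1 they were RTN2, AAC1 and IMP1, with Pearson r of 0.956, 0.956 and 0.954. For GPX1 they were ECM15, YJU3 and YOR292C, from 0.957 to 0.976, and for PRX1 MAF1, YJR096W and UGA2, from 0.972 to 0.980. GPX2 was followed by SMD1, DAD3 and YOR309C, from 0.916 to 0.952. SOD1 was followed most closely by NTH2, at 0.992, and TSA1 by PTA1, at 0.993. These values describe 10 libraries that share their 4 groups.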

How the data were processed

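The deposited table holds RPKM values for 20 libraries, and 6325 of its 6679 genes have reads. Per the submitters' processing notes, CASAVA, bcl2fastq 2.17 and Bowtie2 were used, whereas the sources used here give no genome build, counting tool or treatment of shared reads. RPKM divides by each library's total, so a change in abundant genes shifts all others. The second header line names 3 columns differently from the labels, which were followed. Gene names were checked against RefSeq, where all 35 listed genes matched. Groups came from the genotype and temperature labels.

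Reads per gene were recovered from RPKM steps with 60 nt taken off the coding length, and 85.4 to 90.6% of low values were whole within 0.02 of a read. Log2(RPKM + 1) was fitted for each gene averaging 5 RPKM or more with limma 3.58.1 in R 4.3.3 over all groups of an assay, or over both assays for translation efficiency, two-sided, with Benjamini-Hochberg adjustment over all genes tested and a threshold of 0.05. The fit was tested on simulated data. Alternatives were a pseudocount of 0.1 or 5, no filter, median-of-ratios scaling, a replicate block, and leaving out each culture. Where this left a group with 1 culture, it was assumed to vary like the others.

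Footprint and mRNA deviations of the 10 cultures correlated at 0.240 to 0.655, above 0.1 in each, so these libraries were taken as paired by culture. At 37C, with 2 cultures per group, the cultures of a group necessarily give the same value. Footprints were not compared with the mRNA of other replicate numbers, so the threshold has no reference. The main efficiency fit did not use this pairing, whereas the fit with the culture as a block did. All 10 member genes were described in every comparison, and similar genes were the 3 with the highest Pearson r among genes of at least 20 RPKM. Members and lists were chosen with earlier results of these data known.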

Additional observations from a re-analysis of the deposited data

Results flagged for a closer look

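The strain difference was tested for a difference between the 2 temperatures as an interaction, with limma over all genes. The test passed for 2 of the 9 genes in mRNA, where 5.23% of all genes were called, and for 4 in footprints, where 12.0% were. In mRNA the interaction, the DBP1 minus DED1 difference at 37C minus that at 30C, was -2.30 log2 for CTT1 and -1.83 log2 for GPX1, with adjusted p of 0.00295 and 0.00874. In footprints it was -3.68 log2 for CTT1, -2.32 log2 for GPX1, -0.82 log2 for PRX1 and -0.55 log2 for SOD2, with adjusted p of 0.00220, 0.0185, 0.0363 and 0.0389. CTT1 passed the footprint filter through DBP1 cells at 30C alone, so its footprint p is not independent of that group. In footprints PRX1 and SOD2 did not pass with median-of-ratios scaling, at adjusted p of 0.0718 and 0.120, nor without any 1 of 7 cultures, which were not the same 7 for both, and GPX1 did not pass without DBP1 culture 2 or DED1 culture 1 at 37C, at 0.0589 and 0.0677.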

How the results depend on the processing

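Of 37 calls of the 10 genes, 19 held in every alternative tried and none changed sign. Leaving out 1 culture gave 3 to 6 called genes in mRNA and 3 to 6 in footprints between strains at 30C, and 1 to 4 for the footprint interaction. Median-of-ratios scaling gave 3 called genes in the mRNA of DED1 cells between temperatures and 2 for the footprint interaction. Replicate numbers did not pair the strains at 30C, where their deviations correlated at -0.06 to 0.29 in mRNA and -0.16 to 0.36 in footprints. Not every sample there correlated best with its own number. At 37C samples of the same number deviated together, at 0.361 in mRNA and 0.479 in footprints. A shared batch was not tested, and with the replicate block 0 members were called between strains at 37C in either assay. With the replicate block 7 genes were called between strains at 30C in either assay and 4 for the mRNA interaction, and with the culture as a replicate block 1 gene was called in translation efficiency between temperatures in DBP1 cells and 1 in DED1 cells. The block by replicate number called AHP1 footprints at 30C (adjusted p 0.0168), SOD1 mRNA at 30C (0.0428), TSA2 mRNA between temperatures in DED1 cells (0.0215), and the interactions of TSA2 and GPX2 in mRNA (0.0289 and 0.0264) and of TSA2 in footprints (0.0379), and not GPX2 footprints between temperatures in DED1 cells (0.0692). Of the 135 differences of the 9 genes, 75 were not called in any fit, and 39 of those changed sign in some fit. Among the other 60, sign changed for AHP1 mRNA between temperatures in DBP1 cells, at -0.508 to 0.0985 over left-out cultures, and SOD2 footprints there, at -0.0364 with median-of-ratios scaling and -0.059 to 0.142 without 1 culture. It also changed for CTT1 between temperatures in DED1 cells, at -0.049 in mRNA and -0.031 in footprints with that scaling, and -0.314 to 0.575 in footprints without 1 culture. The cause was not tested. Over all genes, leaving out 1 culture gave 271 to 579 calls in mRNA and 340 to 713 in footprints between strains at 30C, against 507 and 672, and 2 to 20 and 2 to 61 at 37C, against 3 and 48. Between temperatures it gave 1358 to 2005 and 1290 to 1683 in DBP1 cells, against 2350 and 1938, and in DED1 cells 1977 to 2787 and 1673 to 2489, against 2909 and 2621. For the interaction it gave 88 to 333 and 205 to 702, against 285 and 596. In translation efficiency between temperatures it gave 0 to 34 in DBP1 cells and 4 to 21 in DED1 cells, against 51 and 49, and the culture block gave 279 and 334, and 9 between strains at 30C, against 2. With the block the mRNA interaction had 523 calls and footprints at 37C had 99, and with median-of-ratios scaling 167 and 11. Footprints at 37C had 30 calls with no filter, and efficiency in DBP1 cells had 84. Footprint reads limit CTA1 and GPX1, and also CTT1 outside DBP1 cells at 30C, where its libraries had 15 to 66 reads. TSA2 had 31 to 100 footprint reads per library.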
